A study of Mus musculus with 25 samples.

Results

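Older L1 elements are the copies of the LINE-1 retrotransposon class whose family name does not mark them as one of the mouse-specific young families (names that start with L1Md). They were chosen from the deposited repeat table by name alone: every row of the class LINE/L1 whose family name does not start with L1Md, on an autosome, and either lying wholly within an annotated gene or at least 10 kb from every annotated gene. This left 201861 copies, 76748 inside genes and 125113 at least 10 kb away, of 1755056 copies of transposable elements (TEs) in the table. A further 50566 older L1 copies near genes and 39918 on other chromosomes were not analysed here. The copies belong to 118 named families, cover 52.0 Mb inside genes and 89.1 Mb far from genes, and have a median length of 515 and 539 bases. No copy inside a gene overlaps an annotated exon, so all of those copies are intronic. The files hold no divergence values, so the age of a copy rests on its family name.

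The RNA came from mouse 2-cell embryos made by in vitro fertilisation (IVF) or by somatic cell nuclear transfer (SCNT), in which the nucleus of a cumulus cell replaces that of the oocyte. Each library was a pool of 5 to 10 embryos collected at 28 to 29 h, from oocyte donors aged 4 to 20 weeks, sequenced as polyadenylated RNA. The 25 libraries fall into 11 groups, all of them labelled wildtype. IVF embryos (4 libraries) combined C57BL/6N oocytes with DBA2 sperm. SCNT embryos combined enucleated BDF1 oocytes (C57BL/6N x DBA2) with BDF1 female cumulus nuclei. The control SCNT embryos (2 libraries) were made in cytochalasin B, and 2 further groups of 2 libraries each were injected with 10 pL of Kdm3a or Kdm4d mRNA at 1500 ng/µL. The LatA groups were made in latrunculin A instead, another inhibitor of actin filaments: the LatA control (2), TSA at 25 nM for 8 h (2), the G9a inhibitors RK-701 (3) and A366 (2) at 1 µM for 24 h, and TSA together with RK-701, A366 or UNC0638 (2 each). IVF and SCNT embryos also differ in the strain of the oocyte, so strain and method cannot be told apart. IVF embryos are of both sexes and SCNT embryos female, so the sex chromosomes were left out. The labels do not say whether pools of one group came from separate days or donors, so p-values measure only the spread between these libraries.

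L1 elements copy themselves through an RNA intermediate that RNA polymerase II transcribes from a promoter at the 5′ end of a full-length element. Most copies in a mammalian genome are truncated at that end and lack the promoter, so an RNA read over an old fragment can come from the element itself, from unspliced RNA of the gene around it, or from another transcript that runs through it. Methylation of histone H3 at lysine 9 takes part in silencing L1 elements. G9a (gene Ehmt2) is a methyltransferase for that residue, KDM3A and KDM4D are demethylases that remove the mark, and trichostatin A (TSA) inhibits histone deacetylases. The counted families fall into 3 groups by name: rodent families (Lx, L1_Mur, MusHAL1 and the like), the L1Lx families, and families shared across mammals (L1M, HAL1 and relatives).

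Of the 3117 older L1 copies with a mean of at least 5 reads per library, 7 hold a whole RefSeq promoter window, the 300 bases from 250 before to 50 after an annotated transcript start. The 5 windows below lie in copies at least 10 kb from the annotated genes used for counting. They are shown because they are places where an annotated transcript start and an expressed older L1 copy coincide, and the CG count is that of the dinucleotide on which DNA methylation acts. CG is in capitals. Coordinates are on GRCm38.p6 (the mm10 build), and each sequence is RefSeq's, read 5′ to 3′ on the strand of the transcript.
Lx4A copy, start of Gm32793, chr1:77551075-77551374 (+): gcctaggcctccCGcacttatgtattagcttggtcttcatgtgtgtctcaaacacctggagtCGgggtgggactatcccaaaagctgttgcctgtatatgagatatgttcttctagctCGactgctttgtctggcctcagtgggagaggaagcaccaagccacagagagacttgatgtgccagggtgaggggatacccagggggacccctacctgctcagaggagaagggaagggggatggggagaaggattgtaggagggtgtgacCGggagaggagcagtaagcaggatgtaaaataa
Lx7 copy, start of Gm41312, chr15:41317391-41317690 (-): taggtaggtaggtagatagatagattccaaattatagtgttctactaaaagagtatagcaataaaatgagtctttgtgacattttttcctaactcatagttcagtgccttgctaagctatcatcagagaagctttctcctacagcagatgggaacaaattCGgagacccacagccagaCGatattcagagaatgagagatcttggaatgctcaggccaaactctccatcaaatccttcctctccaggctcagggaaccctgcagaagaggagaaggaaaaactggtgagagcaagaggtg
L1Lx_III copy, start of Gm29986, chr17:18223743-18224042 (-): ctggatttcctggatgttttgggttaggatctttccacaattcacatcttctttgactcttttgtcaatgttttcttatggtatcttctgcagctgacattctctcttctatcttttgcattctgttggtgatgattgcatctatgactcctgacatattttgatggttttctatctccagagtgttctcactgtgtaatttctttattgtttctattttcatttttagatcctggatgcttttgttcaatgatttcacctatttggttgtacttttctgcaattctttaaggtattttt
Lx7 copy, start of Gm46983, chr6:5643497-5643796 (+): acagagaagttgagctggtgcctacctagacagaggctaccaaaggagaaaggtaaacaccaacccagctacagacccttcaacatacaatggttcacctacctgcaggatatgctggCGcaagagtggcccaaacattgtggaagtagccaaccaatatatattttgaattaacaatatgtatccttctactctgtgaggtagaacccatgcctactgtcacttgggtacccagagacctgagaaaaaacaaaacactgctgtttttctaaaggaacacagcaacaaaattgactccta
Lx8b copy, start of Gm39373, chr9:75763560-75763859 (+): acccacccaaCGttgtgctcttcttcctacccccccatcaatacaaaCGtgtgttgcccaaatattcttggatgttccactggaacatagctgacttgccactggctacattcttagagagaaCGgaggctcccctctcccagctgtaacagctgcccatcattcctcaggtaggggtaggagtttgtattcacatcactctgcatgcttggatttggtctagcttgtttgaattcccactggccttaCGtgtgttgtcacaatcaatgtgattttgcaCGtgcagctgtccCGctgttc
These windows hold 4, 2, 0, 1 and 6 CG dinucleotides, against a median of 7 over all 32851 RefSeq promoter windows of the same length, of which 94.6% hold at least 1. The window in the L1Lx_III copy is also the poorest of the 5 in G and C (34% against a median of 52.7% over all windows). All 5 starts belong to predicted genes named only by a number. The Lx4A copy gave 0, 1, 0 and 0 reads in the IVF libraries, 6 and 22 in control SCNT and 11 and 47 in LatA control. The Lx7 copy on chromosome 6 gave 22, 70, 76 and 41 reads in IVF, 8 and 21 in control SCNT and 21 and 8 in LatA control. The L1Lx_III copy gave 20, 30, 39 and 8 reads in IVF, 1 and 0 in control SCNT and 20 and 5 in LatA control. In the Lx4A copy every SCNT control library lay above every IVF library, and in the other 2 copies both control SCNT libraries lay below every IVF library. The Lx7 copy on chromosome 15 (5, 39, 7 and 4 reads in IVF, 77 and 16 in control SCNT, 27 and 14 in LatA control) and the Lx8b copy (4, 14, 12 and 5, then 29 and 5, then 0 and 26) overlapped IVF in both groups. Of the 5 copies 1 was called by edgeR: the Lx4A copy was higher (adjusted p = 0.017 in control SCNT and 0.0049 in LatA control), and the call ended without replicate 2 of control SCNT (adjusted p = 0.13) or, in LatA control, without its replicate 2 (0.11). The adjusted p of the other 4 copies lay between 0.059 and 0.71 in both comparisons.

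Depth and identity were checked on genes. The libraries held 6662727 to 21188688 reads in genes, and levels are given throughout in RPM, the reads over a feature as a per-million share of the gene reads of the library, after scaling by trimmed mean of M-values (TMM, factors 0.883 to 1.16). Kdm3a averaged 3290 in the Kdm3a-injected libraries against 203 in control SCNT, and Kdm4d 15541 against 1.62, so both injections are visible in the RNA. The summed level of 5 markers of the 2-cell stage lay between 173 and 1059 in every library, that of 6 oocyte markers between 702 and 2330, and that of 8 cumulus cell markers between 31.5 and 73.0, with 35.3 to 48.8 in IVF and 40.6 to 45.3 in control SCNT. The oocyte sum was 1375 to 1752 in IVF, 990 to 1165 in control SCNT, 986 to 1172 in LatA control and 1855 to 2330 with RK-701. The 2-cell sum was 579 to 739 in IVF, 535 to 641 in control SCNT and 249 to 433 in LatA control, and stood at 876 to 1059 after Kdm3a mRNA, 409 to 500 after Kdm4d mRNA and 972 to 1025 with TSA and UNC0638. With TSA alone the cumulus sum was 59.1 to 73.1, against 31.5 to 40.0 in LatA control. The part of these markers in the differences below was not tested. Because each library is a pool, more cells with a transcript and more transcript per cell cannot be told apart.

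A small share of the older L1 copies accounted for most of the reads. Inside genes 47.2% of copies had no read in any of the 25 libraries, and far from genes 56.5%. Only 2.39% of the inside copies and 1.03% of the far copies reached a mean of 5 reads, yet these 1834 and 1283 copies carried 71.2% and 68.6% of the reads. The 10 copies with the most reads took 5.30% to 17.8% of a library's older L1 reads inside genes and 2.43% to 16.9% far from genes. Of the far reads, 8.73% fell in 7663 copies that RefSeq places inside a gene that the counted annotation lacks.

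Older L1 RNA inside genes was higher in untreated SCNT embryos (control SCNT and LatA control) than in IVF embryos. The summed level was 2843, 3248, 3237 and 3143 in the IVF libraries (3118 ± 189, SD, n = 4), 5892 and 5512 in control SCNT (5702 ± 269, n = 2) and 4524 and 5895 in LatA control (5210 ± 969, n = 2). No library of these untreated SCNT groups overlapped the IVF range. The fold over IVF was 1.83 for control SCNT (log2 difference 0.87, SE 0.07) and 1.66 for LatA control (0.73, SE 0.20). With 2 libraries against 4, a two-sided exact permutation test cannot go below p = 0.0667, which both comparisons reached. Taking the 4 untreated SCNT libraries together gave a fold of 1.74 (log2 0.80, SE 0.10, exact permutation p = 0.0286, the smallest possible with 4 against 4). All other TE copies inside genes were also higher, by 1.40-fold (log2 0.49), and the young L1Md copies inside genes by a log2 difference of 1.00 (exact permutation p = 0.0286).

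Far from genes the same sum differed less. It was 2621, 3133, 3183 and 2949 in IVF (2971 ± 255, n = 4), 3930 and 3813 in control SCNT and 2605 and 3887 in LatA control. Control SCNT lay above every IVF library (fold 1.31, log2 0.39, SE 0.07, exact permutation p = 0.0667). The LatA control libraries lay on both sides of the IVF range, with a log2 difference of 0.10 (exact permutation p = 0.8). Over the 4 untreated SCNT libraries the log2 difference was 0.24 (SE 0.16, exact permutation p = 0.171), and 0.39 (p = 0.0286) without replicate 1 of LatA control. Other TE copies far from genes showed a log2 difference of -0.11 (p = 0.486, exact permutation test). Young L1Md copies far from genes were higher on average in both untreated SCNT groups. Their mean was 1269 in IVF (949 to 1566), 2345 in control SCNT (2195 and 2495) and 2565 in LatA control (1431 and 3700).

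**Figure D1:**
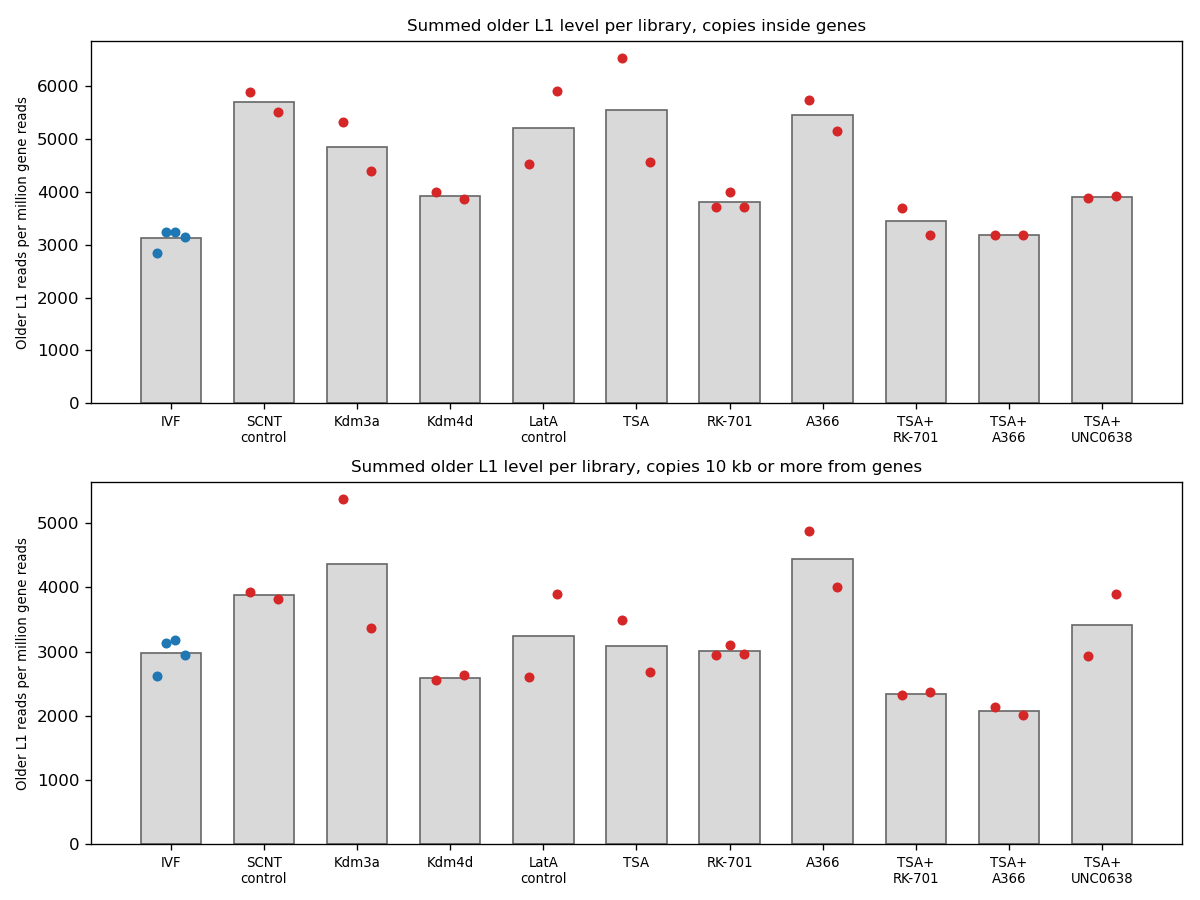
Summed level of older L1 copies in each library (RPM after TMM scaling), inside genes and at least 10 kb from genes, for the 11 groups. Bars are group means and points are libraries. Inside genes the 4 IVF libraries sit between 2843 and 3248 and both untreated SCNT groups lie above them, whereas far from genes the LatA control libraries span the IVF range.

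Kdm4d mRNA and the co-treatments with TSA and a G9a inhibitor were accompanied by lower sums inside genes. The Kdm4d libraries read 3994 and 3860 (3927 ± 94.8, n = 2), below both control SCNT libraries (log2 -0.54, SE 0.05, fold 0.689). TSA with RK-701 read 3701 and 3175, TSA with A366 3190 and 3176, and TSA with UNC0638 3886 and 3922, all below the 4524 and 5895 of LatA control (log2 -0.59, -0.70 and -0.40). RK-701 alone read 3705, 3986 and 3709 (3800 ± 161, n = 3; log2 -0.44, SE 0.19, exact permutation p = 0.1, the smallest possible with 3 against 2). Kdm3a mRNA gave 5317 and 4391, also below control SCNT (log2 -0.24, SE 0.15). TSA alone (6518 and 4556) and A366 alone (5736 and 5154) overlapped LatA control. Other TE copies inside genes were lower too (log2 -0.37 after Kdm4d mRNA and -0.54 for RK-701 alone). Their co-treatment values were -0.42 (RK-701), -0.48 (A366) and -0.34 (UNC0638). Young L1Md copies gave -0.63, -0.75, -0.91, -0.65 and -0.67 in that order (SE up to 0.46). Older L1 copies differed less than other TE copies only for RK-701 alone, and more than young L1Md copies only for the A366 co-treatment. The classes were not tested against each other. With 2 libraries against 2 no exact permutation test can go below p = 0.333, so these 2-against-2 sums carry no call. The inhibitor groups share the same 2 LatA control libraries, which differ from each other by more than the 2 control SCNT libraries or any pair of IVF libraries do in this sum.

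Far from genes, the Kdm4d libraries (2557 and 2627) again lay below control SCNT (log2 -0.58, SE 0.03), and TSA with RK-701 (2324 and 2369; log2 -0.44, but -0.11 over copies at least 50 kb from genes) and with A366 (2132 and 2006; log2 -0.62) below LatA control. RK-701 alone (2946, 3098 and 2962) and TSA with UNC0638 (2937 and 3895) overlapped LatA control. A366 alone (4871 and 4010) lay above it (log2 0.47, SE 0.32, exact permutation p = 0.333). The Kdm3a libraries read 5365 and 3361, on both sides of control SCNT.

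The share of all TE reads that older L1 copies took was higher in untreated SCNT embryos than in IVF in both locations. Inside genes it was 5.86% ± 0.14 in IVF (n = 4), 7.43% in control SCNT and 6.90% in LatA control, a difference of 1.31 percentage points over the 4 untreated SCNT libraries (SE 0.17, exact permutation p = 0.0286). Far from genes it was 10.9% ± 0.25 in IVF, 13.8% in control SCNT and 13.4% in LatA control, a difference of 2.66 points (SE 0.43, exact permutation p = 0.0286). A share does not depend on the scaling to gene reads, so older L1 copies took more of the TE reads of the same location in both untreated SCNT groups. The Kdm4d share was 6.68% inside and 11.1% far from genes, below both control SCNT libraries in each location (differences of -0.75 and -2.68 points). With TSA and A366 it was 6.01% and 10.0%, below both LatA control libraries (-0.90 and -3.36 points). With TSA and RK-701 it was 6.20% inside, which overlapped LatA control, and 11.4% far from genes, which did not (-2.0 points, but 1.27 points over copies at least 50 kb from genes). RK-701 alone gave 7.34% and 13.1%, overlapping LatA control in both locations.

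**Figure D2:**
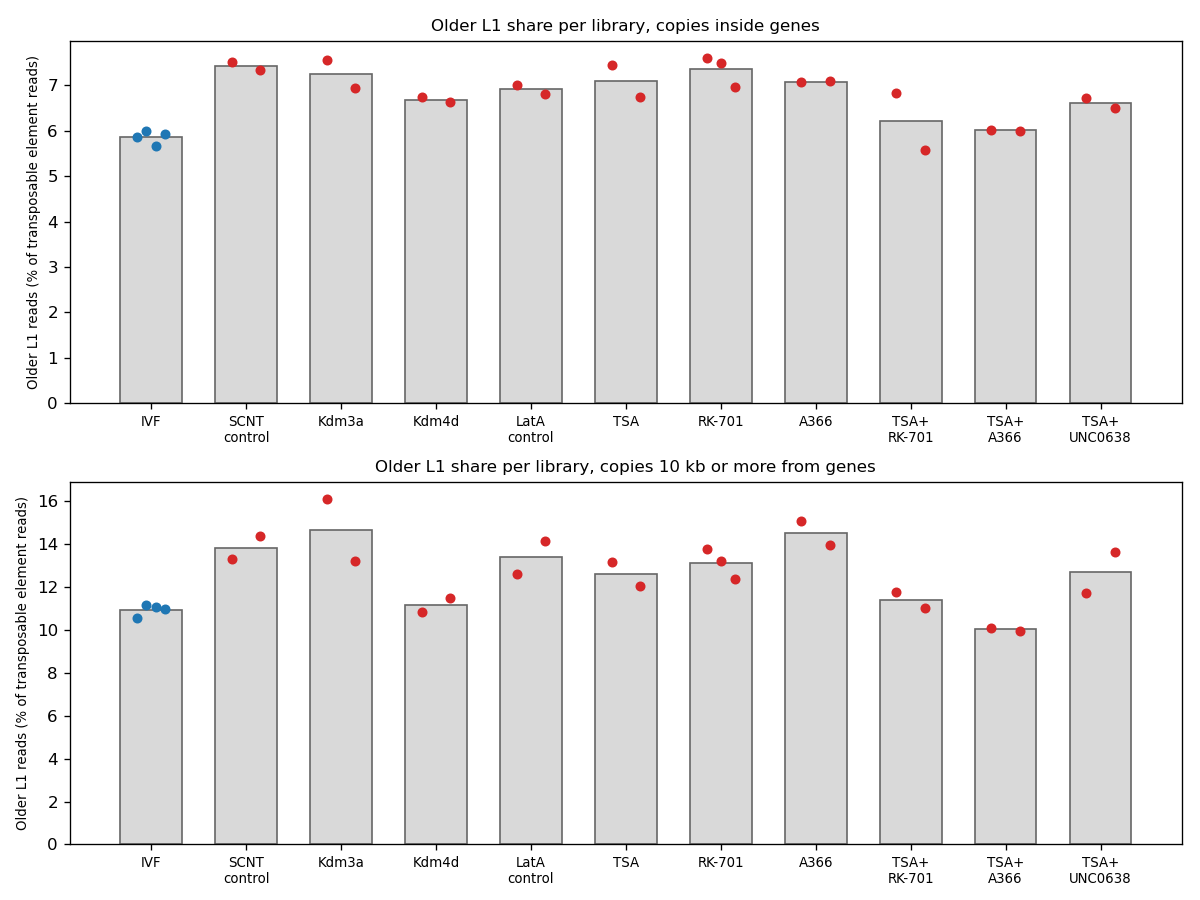
Percent of TE reads of the same location that fell in older L1 copies, per library, with bars at the group means and points for libraries. Inside genes the IVF mean is 5.86% and the untreated SCNT groups stand at 7.43% and 6.90%. Far from genes Kdm4d at 11.1% lies near the IVF mean of 10.9%, and TSA with A366 at 10.0% lies below every IVF library (10.6% to 11.2%).

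To see which families made up these sums, the reads of each family were added separately inside and far from genes and tested with edgeR's quasi-likelihood test, with Benjamini-Hochberg adjustment over 1093 family sums of all TE classes and an adjusted p under 0.05 as the call. Of the older L1 families, 76 inside genes and 66 far from genes had enough reads to test (a mean of at least 10), of 107 in each location. Between control SCNT and IVF, 52 of the 76 sums inside genes were called higher and 0 lower, where 46.3% of all family sums inside genes were called higher and 4.96% lower. The median log2 difference was 0.93 for older L1 families and 0.70 for all families inside genes, and 70 of the 76 lay above 0. Far from genes 17 of 66 were higher and 3 lower (all families: 19.5% higher, 9.45% lower), with medians of 0.37 and 0.31. LatA control against IVF gave 47 higher and 0 lower inside genes (42.4% and 4.79% of all sums) and 8 higher and 4 lower far from genes (12.2% and 14% of all sums), with medians of 0.81 and 0.16 against 0.62 and 0.05 for all families. Both comparisons share the 4 IVF libraries. Without replicate 2 of LatA control the LatA calls fell from 59 to 36, and without the scaling factor the far split of 17 higher and 3 lower in control SCNT became 30 and 1, and that of 8 and 4 in LatA control became 17 and 3.

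By name, the calls inside genes covered all 3 groups. Between control SCNT and IVF, 20 of 27 rodent families, 4 of 4 L1Lx families and 28 of 45 mammal-wide families were called higher, with median log2 differences of 0.78, 1.04 and 1.08. Far from genes 5 of 28, 3 of 4 and 9 of 34 were called higher. Rodent families held 72.3% of the older L1 reads inside genes and mammal-wide families 12.5%, from 7.96% of the bases. Per kb of sequence the mammal-wide copies inside genes had the highest level of the 3 name groups in IVF, 0.0925 RPM per kb, and 0.182 in control SCNT, against 0.0585 and 0.103 for rodent and 0.0515 and 0.104 for L1Lx copies. Far from genes the mammal-wide copies went from 0.0476 to 0.0905, and rodent copies from 0.0354 to 0.0430.

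The 6 families with the most reads inside genes, 5 rodent ones and L1Lx_I, were all called higher in both untreated SCNT groups. Lx9, the family with the most reads, had levels of 261, 292, 302 and 283 in IVF, 441 and 420 in control SCNT and 381 and 409 in LatA control (log2 0.60 ± 0.12, SE, and 0.47 ± 0.12). L1_Mur3 had 165, 183, 164 and 177 in IVF, 396 and 368 in control SCNT and 287 and 369 in LatA control (log2 1.15 ± 0.15, adjusted p = 1.1e-05, and 0.93, adjusted p = 5.3e-05). In both families every untreated SCNT library lay above every IVF library. Lx7 (log2 0.87 and 0.82), Lx8 (0.90 and 0.74) and L1Lx_I (0.94 and 0.76) separated the same way. Lx5c was called too (0.78, adjusted p = 0.048, and 0.98, adjusted p = 0.015), but its libraries overlapped: IVF ran from 134 to 176 and LatA control read 164 and 463. In Lx5c a single copy in an intron of Hdac9 held 31.1% of the reads. The calls of L1_Mur3, Lx7 and Lx8 in both groups, and of Lx9 and L1Lx_I in control SCNT, held whichever library was left out. Without replicate 2 of LatA control those of Lx9 (adjusted p = 0.051), L1Lx_I (0.10) and Lx5c (log2 0.05) in LatA control ended, and the Lx5c call in control SCNT ended in 5 of 6 omissions (each IVF library and replicate 1 of control SCNT; adjusted p up to 0.51).

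Among the mammal-wide families inside genes the log2 differences were larger at much lower levels. L1MC2 (133 copies) read 6.05, 4.66, 3.11 and 4.67 in IVF and 22.4 and 26.7 in control SCNT (log2 2.44 ± 0.40, adjusted p = 8.2e-05), but 6.19 and 12.6 in LatA control (1.03, adjusted p = 0.06). L1ME1 read 3.72, 2.05, 3.95 and 3.69 in IVF, 13.3 and 10.3 in control SCNT and 10.3 and 8.29 in LatA control (log2 1.82 and 1.48). L1MD2 read 2.36 to 3.31 in IVF, 8.91 and 7.50 in control SCNT and 8.63 and 11.5 in LatA control (1.55 and 1.84). These groups did not overlap. MusHAL1, of the HAL1 branch of L1 elements, is counted by its name among the rodent families. It read 18.4, 10.6, 10.9 and 10.9 in IVF, 29.9 and 27.3 in control SCNT and 23.3 and 34.1 in LatA control (1.19 and 1.20). The largest called log2 differences inside genes were in families with few reads: L1MCb (8 copies, 2.94), L1M3e (21 copies, 2.36) and, in LatA control, L1MC4 (2.58), each under 5 RPM in every library of the 3 untreated groups. The calls of L1ME1, L1MD2 and MusHAL1 in both groups and of L1MC2 in control SCNT held in every omission of 1 library. That of L1MCb ended without replicate 1 of control SCNT (adjusted p = 0.13), that of L1M3e without either control SCNT library (0.065) and that of L1MC4 without replicate 2 of LatA control (0.081).

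Far from genes the families with the most reads gave no call in control SCNT. Lx7 read 242, 317, 301 and 270 in IVF and 376 and 356 in control SCNT (log2 0.37, adjusted p = 0.085), with 243 and 301 in LatA control. Lx6, Lx9, L1Lx_III, Lx5 and L1_Mur2 gave log2 differences of 0.21, 0.32, 0.43, -0.26 and 0.50. In LatA control Lx5 was called lower: it read 139, 169, 185 and 176 in IVF and 100.2 and 128 in LatA control (log2 -0.55, adjusted p = 0.045), below every IVF library. That call ended in 5 of 6 omissions of 1 library, those of IVF replicates 2, 3 and 4 and of either LatA control library (adjusted p up to 0.27). The far families with the largest called differences rested on very few copies. L1MB4 read 1.24, 6.28, 5.25 and 7.95 in IVF, 56.4 and 57.3 in control SCNT and 30.0 and 41.1 in LatA control (log2 3.39 ± 0.39 and 2.71 ± 0.39), and 1 copy held 68.3% of its reads. L1MEc read 4.19, 3.85, 5.06 and 3.14 in IVF, 28.7 and 23.0 in control SCNT and 21.7 and 8.56 in LatA control (2.67 ± 0.39 and 1.91 ± 0.39), and 91.3% of its reads lay in 1 copy at chr6:53748847-53749815. Lx5b was lower in both untreated SCNT groups: 205, 200, 202 and 190 in IVF, 87.9 and 96.2 in control SCNT and 78.4 and 67.8 in LatA control (log2 -1.11 ± 0.19 and -1.45 ± 0.19). One Lx5b copy near Kcnv1 held 33.1% of the reads over all libraries together but most of the family's reads in IVF. Its own reads were far lower in both untreated SCNT groups (given below). The Lx5b difference therefore rests largely on that copy, and the family was not tested without it. Over copies at least 50 kb from genes the control SCNT difference turned to 0.25 (adjusted p = 0.255, edgeR). L1M4 was lower as well (log2 -0.61 and -1.36), though its libraries in control SCNT (14.5 and 10.1) and IVF (14.6 to 20.3) were close. The calls of L1MB4 and Lx5b in both groups, of L1MEc in control SCNT and of L1M4 in LatA control held in every omission of 1 library. That of L1MEc in LatA control ended without its replicate 1 (log2 1.08, adjusted p = 0.075), and that of L1M4 in control SCNT ended without replicate 2, 3 or 4 of IVF or replicate 2 of control SCNT (adjusted p up to 0.37).

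After Kdm4d mRNA a part of the older L1 family sums was lower. Against control SCNT, 26 of 76 family sums inside genes and 15 of 66 far from genes were called lower and none higher, where 13.3% and 11.2% of all family sums were called lower. The medians were -0.71 and -0.65 for older L1 families and -0.43 and -0.47 for all families. Inside genes the lower calls held 12 of 27 rodent, 2 of 4 L1Lx and 12 of 45 mammal-wide families. L1_Mur3 read 233 and 234 after Kdm4d mRNA (log2 -0.71, adjusted p = 0.016), L1ME1 5.16 and 3.44 (-1.45, adjusted p = 0.01) and L1MC2 5.32 and 8.84 (-1.79, adjusted p = 0.023), all below both control SCNT libraries. L1MCa read 2.58 and 3.09 against 9.68 and 8.61 (-1.68, adjusted p = 0.049). Far from genes L1MB4 read 19 and 15.4 (-1.73), L1MEc 2.26 and 6.52 (-2.54) and Lx7 236 and 238 (-0.63, adjusted p = 0.043). These family calls depend on each library: 0 remained without replicate 1 of Kdm4d, 1 without its replicate 2, 1 without replicate 1 of control SCNT and 16 without replicate 2 of control SCNT. Of the families named here, L1MEc lost its call without replicate 1 of Kdm4d alone (adjusted p = 0.065), and each of the others lost it in 3 or 4 of the 4 omissions.

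Kdm3a mRNA gave 5 calls among the older L1 families, 3 higher and 2 lower: L1VL1 inside genes (log2 2.10) and L1MA4A (1.48) and Lx2B (0.81) far from genes were higher, and L1MD1 (-1.07) and L1ME1 (-1.24) inside genes were lower. Over both locations 4.94% of all family sums were called in that comparison. The count fell to 3 without replicate 2 of Kdm3a, 2 without replicate 1 of control SCNT and 1 without replicate 2 of control SCNT.

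Of the 6 inhibitor groups, TSA with A366 and TSA with RK-701 had the most lower calls, 59 and 53 over both locations. TSA with RK-701 gave 36 lower and 0 higher of 76 inside genes and 17 lower of 66 far from genes (27.7% and 16.3% of all sums were lower), with medians of -0.75 and -0.51 against -0.56 and -0.39 for all families. TSA with A366 gave 39 and 20 lower (31.6% and 18.5% of all sums), with medians of -0.80 and -0.54. RK-701 alone gave 18 lower inside genes (18.8% of all sums) and 1 far from genes, Lx3A at log2 -1.76 (4.53% of all sums). TSA with UNC0638 gave 9 lower inside genes (13.2% of all sums), and far from genes 3 higher, L1MB2 (3.03), Lx5b (0.63) and Lx8b (0.55), and 2 lower, L1MB3 (-2.05) and L1MC3 (-1.10), where 9.65% of all far sums were higher and 2.56% lower. The 18 and 9 lower sums of 76 inside genes with RK-701 and with TSA and UNC0638 are 23.7% and 11.8%, near the shares of all families.

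TSA and A366 alone gave few calls. TSA alone gave 1 call among the older L1 sums, L1MEc far from genes (log2 -2.60), of 0.549% of all sums, with 4 inside and 7 far at an unadjusted p under 0.05. A366 alone gave 0 by edgeR (0.915% of all sums), with 8 and 15 at an unadjusted p under 0.05, and 5 by DESeq2. The TSA call ended without replicate 1 of TSA or of LatA control, and A366 had 1 call without either of its own libraries and 7 without replicate 2 of LatA control. Whether the combination differed from the sum of the single treatments was tested as an interaction: with A366, 6 older L1 sums inside genes and 9 far from genes were lower than the single treatments add up to (4.44% and 5.91% of all sums), among them L1Lx_II in both locations (-1.01 and -1.48) and Lx3_Mus in both (-1.05 and -2.85). With RK-701 the interaction gave 0 older L1 sums by edgeR (0% of all sums), with 5 inside and 4 far at an unadjusted p under 0.05.

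With TSA and RK-701, 21 of 27 rodent, 3 of 4 L1Lx and 12 of 45 mammal-wide families were lower inside genes. MusHAL1 inside genes read 9.97 and 8.79 against 23.3 and 34.1 in LatA control (log2 -1.61, adjusted p = 0.00087). L1MC read 3.86 and 3.07 against 6.13 and 17.3 (-1.74, adjusted p = 0.0041). L1_Mur3 read 227 and 190 against 287 and 369 (-0.65, adjusted p = 0.013). None of the 3 overlapped LatA control. Lx2A was called at -1.94, but its 1.86 and 4.53 overlapped the 3.85 and 21.4 of LatA control. Far from genes L1MB3 read 0.85 and 0.628 against 5.21 and 6.70 (-3.0, adjusted p = 0.0015), L1MEc 2.86 and 2.58 against 21.7 and 8.56 (-2.48) and L1MB4 7.19 and 11.9 against 30.0 and 41.1 (-1.89). HAL1 far from genes, 5 copies in all, had 0 reads in both libraries with TSA and RK-701 and 3.42 and 0 in LatA control, which overlap. All inhibitor comparisons use the same 2 LatA control libraries: without replicate 2 of LatA control the calls fell to 19 for TSA with RK-701, 20 for TSA with A366, 0 for RK-701 and 0 for TSA with UNC0638. Leaving out replicate 2 of TSA with RK-701 left 2 of its 53 calls and leaving out its replicate 1 left 29. Without its own replicates TSA with A366 had 36 and 23 calls, RK-701 10, 9 and 7, and TSA with UNC0638 2 and 3 (25 without replicate 1 of LatA control). MusHAL1 kept its call in all 4 omissions (adjusted p at most 0.032). L1MB3 and L1MEc lost theirs without replicate 2 of TSA with RK-701 alone (0.051 and 0.053), L1MC and L1_Mur3 without that library or replicate 2 of LatA control, and L1MB4, Lx2A and HAL1 in 3 of 4 omissions.

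**Figure D3:**
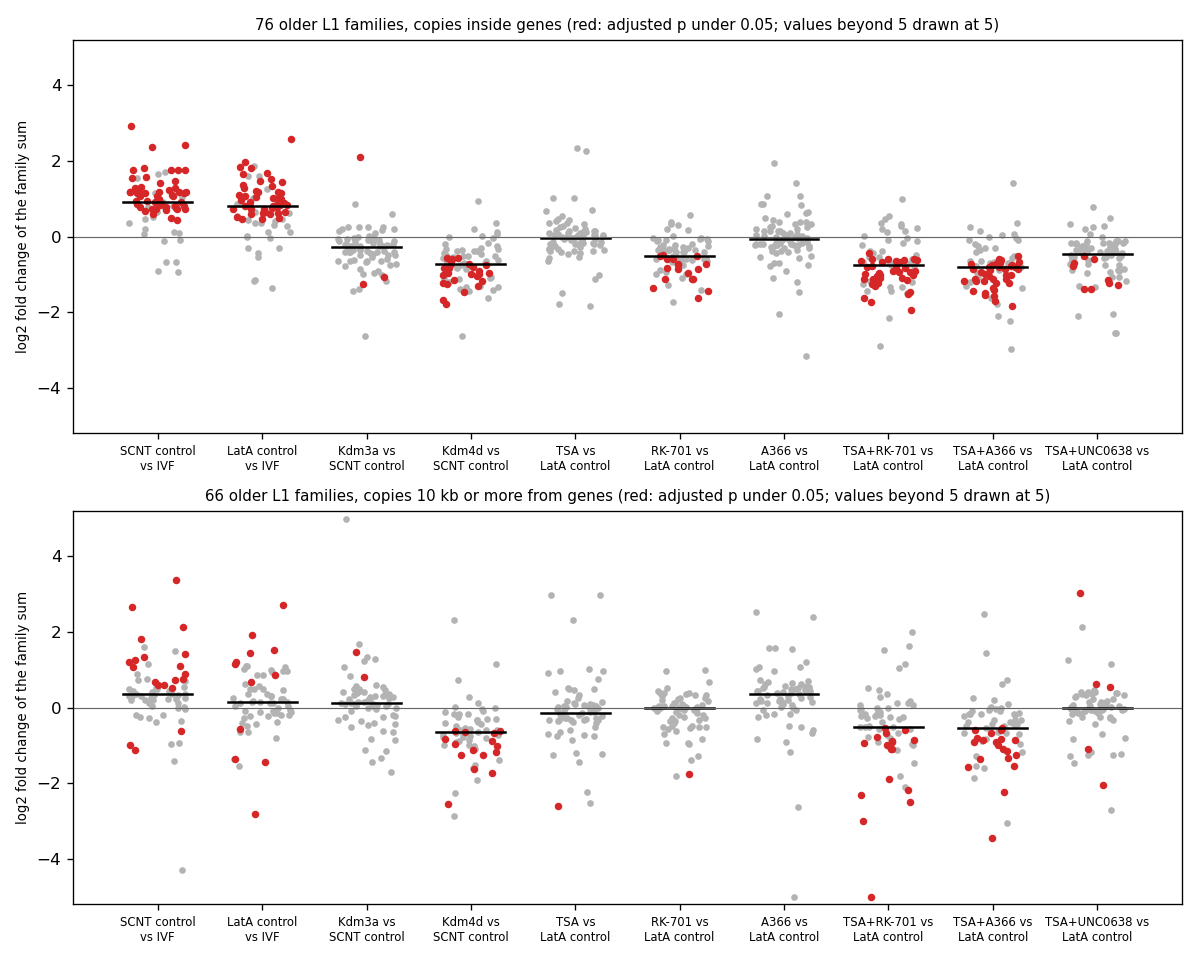
Log2 difference of each tested older L1 family in each comparison, inside genes and far from genes; each point is 1 family, black lines are medians, red points have an adjusted p under 0.05 (edgeR) and values beyond 5 are drawn at 5. Inside genes the points of both comparisons with IVF lie mostly above 0 (medians 0.93 and 0.81), and those of Kdm4d and of TSA with RK-701 or A366 mostly below 0 (medians -0.71, -0.75 and -0.80).

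Long copies differed most against IVF. Inside genes the 2686 copies of at least 2000 bases gave 0.0412 to 0.0518 RPM per kb in the IVF libraries, and 0.108 to 0.116 in control SCNT (log2 1.30), against 0.0642 to 0.0780 and 0.121 to 0.128 for copies under 500 bases (log2 0.77). In IVF the long copies were thus lower per kb than the short ones in every library, and in control SCNT the ratio of short to long was smaller. Far from genes the long copies went from 0.0189 to 0.0249 in IVF to 0.0412 to 0.0447 in control SCNT (log2 0.92), and the short copies differed by a log2 value of 0.29. In LatA control the log2 difference inside genes was 0.81 for long and 0.67 for short copies. After Kdm4d mRNA it was -1.0 for long and -0.51 for short copies, with TSA and RK-701 -1.0 and -0.57, and with TSA and A366 -1.13 and -0.67. With RK-701 alone (-0.39 and -0.44) and with TSA and UNC0638 (-0.38 and -0.37) long and short copies inside genes had similar values. For copies far from genes the order varied: TSA with RK-701 gave -0.46 for long and -0.69 for short copies, TSA with UNC0638 0.26 and -0.19, Kdm4d mRNA -0.68 and -0.58, and TSA with A366 -0.76 and -0.73. These class values were not tested against each other. Copies in the orientation of their host gene (23218) gave log2 differences against IVF of 0.91 in control SCNT and 0.81 in LatA control. Those in the opposite orientation (50033) gave 0.84 and 0.67. Against LatA control the same and the opposite orientation gave -0.57 and -0.37 with RK-701 alone and -0.74 and -0.51 with TSA and RK-701. With TSA alone they gave 0.07 and 0.11. The orientations were not tested against each other either.

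**Figure D4:**
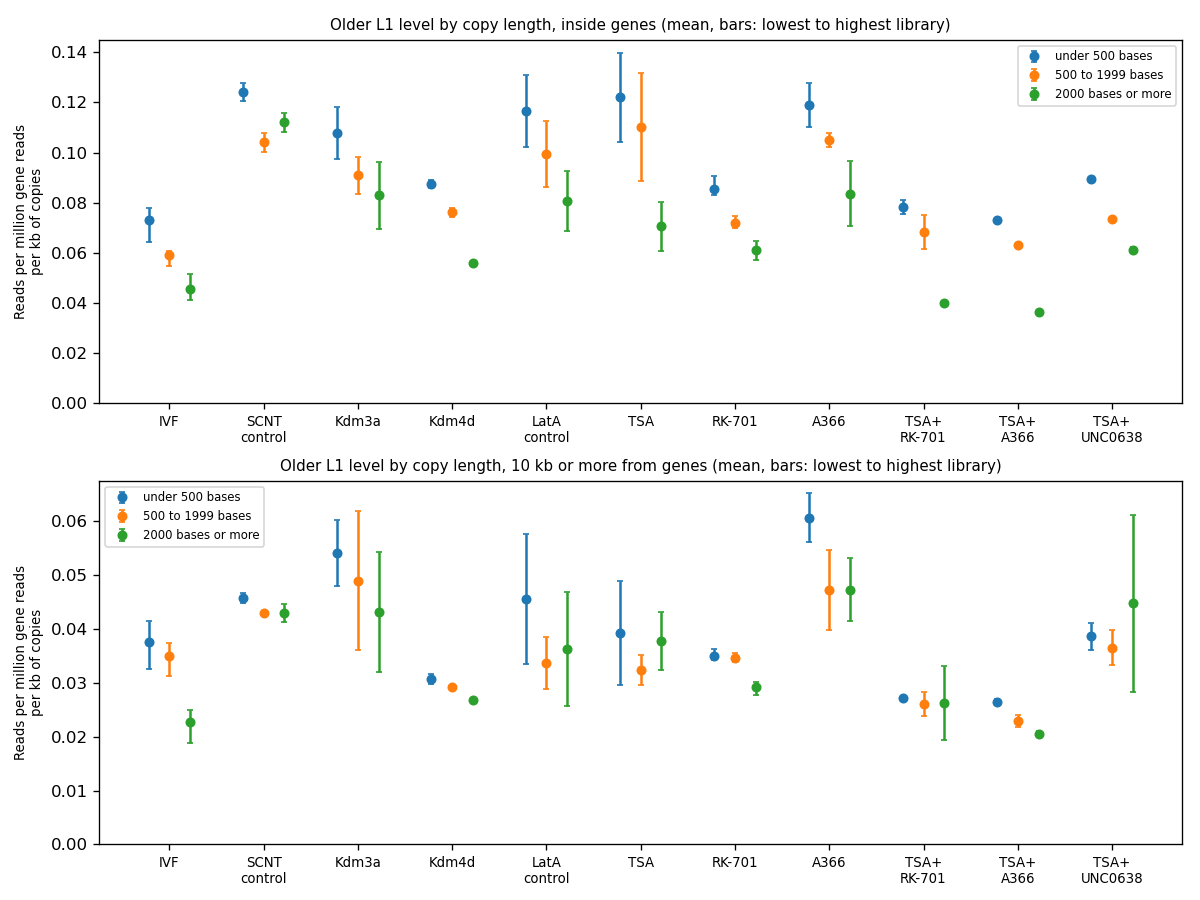
Level per kb (RPM per kb) of older L1 copies under 500, from 500 to under 2000 and at least 2000 bases long, inside genes and far from genes, by group; points are group means and bars run from the lowest to the highest library. Inside genes the longest copies read 0.0412 to 0.0518 in IVF and 0.108 to 0.116 in control SCNT.

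Single copies were tested in the same way over 46280 TE copies with a mean of at least 5 reads, with an adjusted p under 0.05 and a fold over 2 as the call. Between control SCNT and IVF, 201 of 1834 older L1 copies inside genes were higher and 46 lower (8.39% and 2.6% of all tested copies inside genes), and 104 of 1283 far copies were higher and 63 lower (6.97% and 7.63% of all). Copies within 50 kb of each other were merged, and the 201 higher copies lay in 158 loci and the 104 far ones in 73. LatA control against IVF gave 183 higher and 35 lower inside genes (9.07% and 2.76% of all) and 78 higher and 84 lower far from genes (5.89% and 10.5% of all). The medians over the tested older L1 copies were 0.89 inside and 0.46 far from genes in control SCNT, against 0.63 and 0.04 for all copies. The 414 calls in control SCNT fell to 145 without its replicate 1 and 189 without its replicate 2, and the 380 in LatA control to 112 without its replicate 2 and 253 without replicate 2 of IVF. Without the scaling factor the far split in LatA control became 116 higher and 68 lower.

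Except among the lower copies in LatA control, most called copies lay in a host gene that was itself not called, and in both comparisons the called hosts went the same way more often than the opposite way. Of 187 higher copies in control SCNT with 1 tested host gene, 26 lay in a host that was itself called higher (13.9%, against 7.56% of all tested older L1 copies in 1 host) and 9 in a host called lower. Of 43 lower copies, 15 lay in a host called lower (34.9% against 8.97%) and 1 in a host called higher. In LatA control the counts were 21 of 163 (12.9% against 5.49%) and 17 of 33 (51.5% against 8.62%), with 4 and 0 hosts called the opposite way. Of the far copies called higher in control SCNT, 22.1% lay within 10 kb of a MERVL copy, a retrovirus-like element expressed at the 2-cell stage, as did 20.6% of those called lower and 17.5% of all tested.

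Of the 5 inside copies with the highest mean level, those in Pcnx4 and Prim2 were called higher in both untreated SCNT groups. The Pcnx4 copy, of the L1_Mur2 family (chr12:72542407-72546837, intronic) had 246, 296, 536 and 286 reads in IVF, 1117 and 1081 in control SCNT and 749 and 960 in LatA control (log2 1.81, adjusted p = 0.0042, and 1.23, adjusted p = 0.036). All SCNT control libraries lay above all IVF libraries, while Pcnx4 itself differed by a log2 value of 0.44 in control SCNT (adjusted p = 0.12). After Kdm4d mRNA the copy had 322 and 500 reads (-1.67, adjusted p = 0.13) and with TSA and A366 175 and 218 (-2.25, adjusted p = 0.022). The L1M2 copy in Prim2 (chr1:33620256-33620961), the gene of a primase subunit, was called higher as well (1.03 and 1.16). The Pcnx4 call in control SCNT held in every omission of 1 library (adjusted p at most 0.047), and that in LatA control ended without replicate 2 or 4 of IVF or replicate 2 of LatA control (log2 down to 0.55, adjusted p up to 0.52). The Prim2 call ended in control SCNT without replicate 1, 2 or 4 of IVF or replicate 2 of control SCNT (up to 0.38), and in LatA control without its replicate 2 (0.095).

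Other abundant copies were dominated by single libraries and gave no call. The Lx5c copy in Hdac9 (chr12:34073757-34075224) had 404, 141, 150 and 705 reads in IVF, 1404 and 213 in control SCNT and 143 and 2204 in LatA control. An Lx copy in A230006K03Rik (chr7:61255072-61256401) had 10100 reads in replicate 1 of TSA, 1428 in replicate 1 of Kdm4d, 9331 in replicate 2 of A366 and 0 in the other 22 libraries. A far L1Lx_III copy (chr17:41898416-41901130) had 5685 reads in replicate 2 of TSA with UNC0638 and 2483 in replicate 1 of TSA with RK-701, against 3 to 228 in the 8 untreated libraries.

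Some copies had reads in SCNT embryos and none in IVF, so they passed the read filter through SCNT libraries alone. For these copies the fold is a lower bound, set against a floor of 3 reads per IVF library. An L1Lx_IV copy of 5805 bases in Hecw1 (chr13:14239493-14245297) had 16 and 20 reads in control SCNT and 59 and 35 in LatA control, at least 5.96-fold and 12.2-fold higher. An L1Lx_I copy where Slc18a1 and Gm15716 overlap (chr8:69053461-69060150) had 14 and 41 and then 4 and 14 reads, at least 8.77-fold and 2.88-fold higher. Neighbouring L1Lx_III copies in Cdkal1 (chr13:29658654-29659710 and chr13:29657242-29658655) had 19 and 28, and 6 and 22, reads in control SCNT. Far from genes an L1Lx_IV copy at chr13:32917818-32920075, inside a RefSeq gene, had 24 and 53 reads in control SCNT and 42 and 38 in LatA control, at least 12.4-fold and 11-fold higher. A count of 0 at these depths sets a limit on the level and does not show that a copy was silent. The read filter and the choice by fold both favour copies of this kind. Their calls, also those that held with a library left out, are therefore no separate support for a difference. The call of the chromosome 13 copy held in both groups whichever library was left out, as did that of Hecw1 in LatA control and of Slc18a1 in control SCNT. The Hecw1 call in control SCNT ended without either of its libraries (adjusted p up to 0.057), the Slc18a1 call in LatA control in 4 of 6 omissions (up to 0.21), and the Cdkal1 calls in control SCNT without its replicate 2 (0.054 and 0.11).

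Among the copies that were lower in SCNT were one in Obox3 and one in Sycp1. The Lx3A copy in Obox3 (chr7:15624317-15624916), a homeobox gene expressed in oocytes and early embryos, had 33, 64, 73 and 101 reads in IVF, 5 and 14 in control SCNT and 0 and 0 in LatA control. That is a log2 difference of -2.67 (adjusted p = 0.013) and at least 23.6-fold lower. In every group with RK-701 or with TSA and a G9a inhibitor it had 32 to 63 reads: 38, 39 and 41 with RK-701 (at least 13.8-fold above LatA control), 37 and 63 with TSA and RK-701 (at least 16.4-fold), 51 and 32 with TSA and A366 (at least 13.1-fold) and 57 and 48 with TSA and UNC0638 (at least 18.1-fold). With A366 alone it had 11 and 1 and with TSA alone 1 and 0. Obox3 itself went the same way in the comparisons in which the copy was named (log2 -3.03 in control SCNT and -3.08 in LatA control against IVF, and 1.91 with TSA and RK-701). The gene was also higher after Kdm4d mRNA (2.51) and Kdm3a mRNA (3.08). The copy was not called after Kdm4d mRNA, and its reads after either injection are not given here. The Lx3_Mus copy in Sycp1 (chr3:102881911-102886312), which encodes a protein of the meiotic synaptonemal complex, had 37, 29, 84 and 49 reads in IVF and 4 and 0 in control SCNT, and 0 in LatA control. Its host was lower by log2 -4.02 and -4.04, and the copy had at most 5 reads in any SCNT library. The Sycp1 copy passed the read filter through IVF libraries alone, so its calls are no separate support for a difference. The Obox3 copy kept its calls in LatA control and with TSA and RK-701 in every omission of 1 library and lost that in control SCNT without its replicate 1 (adjusted p = 0.13). The Sycp1 copy lost its call in control SCNT in all 6 omissions (up to 0.19) and in LatA control without its replicate 2 (0.057).

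Far from genes the most abundant copy that was lower was the Lx5b copy at chr15:45134086-45135269, 19259 bases from Kcnv1. It had 841, 1886, 1897 and 1667 reads in IVF, 42 and 2 in control SCNT and 107 and 3 in LatA control (log2 -5.87, adjusted p = 0.0012, and -5.28, adjusted p = 0.0019), with no overlap. After Kdm3a mRNA it had 1438 and 223 reads (4.50, adjusted p = 0.031) and after Kdm4d mRNA 149 and 254 (2.84, adjusted p = 0.2). An L1_Mur1 copy (chr6:9841727-9841969) had 59, 113, 64 and 105 reads in IVF and 0 and 0 in control SCNT, at least 26.1-fold lower, and an Lx9 copy (chr3:18782591-18783709) had 17, 61, 51 and 62 reads in IVF and 0 in both control groups, at least 13.3-fold and 15.9-fold lower. The Lx9 copy had 2 reads in 1 TSA with RK-701 library and 0 in every other SCNT library. It passed the read filter through IVF libraries alone, so its calls are no separate support for a difference. The calls of all 3 copies against IVF held in both groups in every omission of 1 library.

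The remaining comparisons gave few calls on single copies. Kdm3a mRNA gave 24 higher and 3 lower of the 3117 (0.741% of all tested copies were called), Kdm4d mRNA 5 higher and 1 lower (0.219%), TSA 1 and 1 (0.0596%), RK-701 3 and 6 (0.389%) and A366 4 higher (0.105%). TSA with RK-701 gave 9 higher and 17 lower (0.489%), TSA with A366 15 higher and 56 lower (1.15%) and TSA with UNC0638 27 higher and 4 lower (0.994%). Each of these counts lost calls when a library was left out, down to 0 for Kdm4d (without replicate 2 of control SCNT), RK-701 (without its replicate 3) and TSA (without its replicate 1 or replicate 1 of LatA control), and to 3 for Kdm3a (without replicate 2 of control SCNT), TSA with RK-701 (without its replicate 2) and TSA with A366 (without its replicate 1), to 5 for TSA with UNC0638 (without its replicate 1) and to 1 for A366 (without replicate 1 of LatA control). RK-701 had 61 calls without replicate 1 of LatA control, and A366 10 without its own replicate 1. DESeq2 called between 39 and 243 older L1 copies in each of these 8 comparisons, and fits of the compared groups alone called 0 in each.

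Of the copies called higher after Kdm4d mRNA, 2 are described here. The Lx7 copy in Mgat4c (chr10:101878262-101879816) had 114, 261, 337 and 306 reads in IVF, 21 and 13 in control SCNT, 202 and 447 after Kdm4d mRNA (log2 3.96, adjusted p = 0.011) and 697 and 199 after Kdm3a mRNA (4.13, adjusted p = 0.005). A far Lx2 copy (chr3:3158234-3163418) had 19, 31, 40 and 28 reads in IVF, 1 and 0 in control SCNT and 202 and 156 after Kdm4d mRNA. The Kdm4d libraries stood above every IVF library in this copy and overlapped IVF in the Mgat4c one. Both of these Kdm4d calls ended in 3 of 4 omissions of 1 library (adjusted p up to 0.11 and 0.14).

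With TSA and RK-701, copies in Mblac2, Nkain2 and Cers6 and one near Malrd1 had no read. The Lx2B2 copy in Mblac2 (chr13:81715248-81717059) had 2, 24, 4 and 41 reads in IVF, 149 and 115 in control SCNT, 52 and 211 in LatA control and 0 and 0 with TSA and RK-701, at least 50.9-fold lower than LatA control. L1Lx_III copies in Nkain2 (chr10:32010337-32013498) and Cers6 (chr2:68938981-68943525) were at 0 in both libraries as well, at least 37.7-fold and 22-fold lower. Far from genes an L1Lx_IV copy 45706 bases from Malrd1 (chr2:16301261-16303669) had 1, 5, 7 and 5 reads in IVF, 106 and 152 in control SCNT, 74 and 69 in LatA control and 0 and 0 with TSA and RK-701, at least 23.7-fold lower. In the other direction an L1M2 copy (chr13:41925105-41925557) had 24, 44, 54 and 53 reads in IVF, 0 and 0 in LatA control and 50 and 69 with TSA and RK-701, at least 19.6-fold higher, and 49 and 39 with TSA alone. The 4 lower calls with TSA and RK-701 each ended in 3 of 4 omissions of 1 library (adjusted p up to 0.14, 0.24, 0.24 and 0.22), and the higher call of the L1M2 copy ended without replicate 2 of LatA control (0.059).

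**Figure D5:**
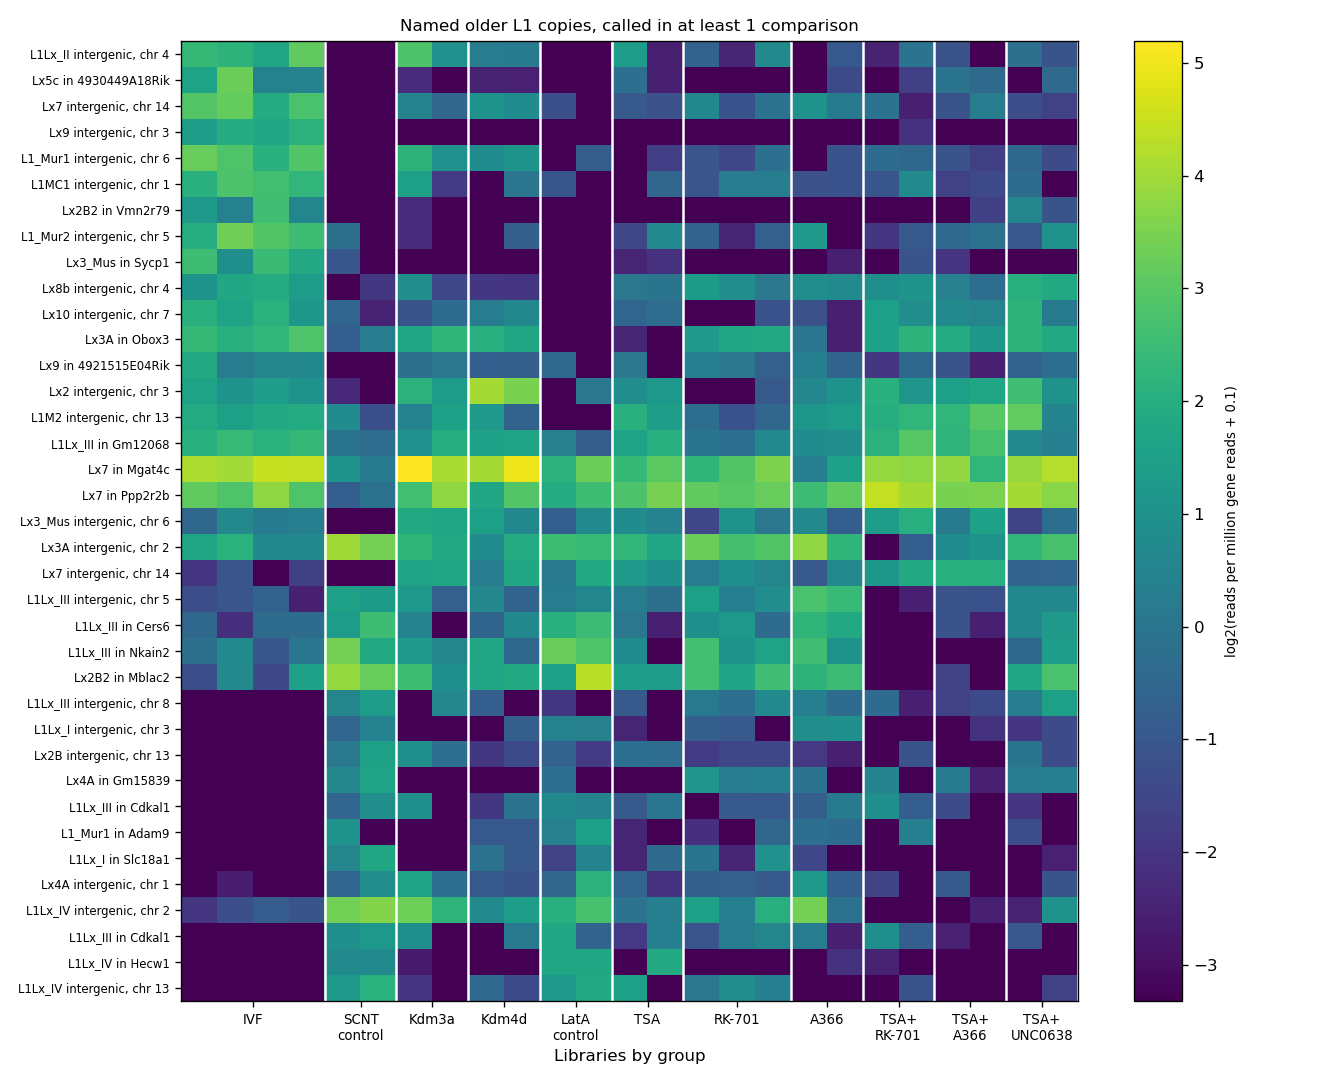
Heat map of the named older L1 copies that were called in at least 1 comparison (rows, by family and host gene or, for copies far from genes, chromosome) in the 25 libraries (columns, by group), coloured by log2 of the level in RPM plus 0.1. The Obox3 copy is at the low end of the scale in both LatA control libraries (0 reads) and high with TSA and RK-701 (37 and 63 reads), and the Mblac2 copy is the reverse, with 52 and 211 reads and then 0.

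Among genes that silence L1 elements, 21 factors were listed and 19 could be tested on autosomes. Calls on genes needed an adjusted p under 0.05 (edgeR, over 25794 genes) and a fold over 2. Ehmt2, the gene of G9a, was higher in both untreated SCNT groups than in IVF: 9.32 to 11.4 in IVF, 29.4 to 33.6 in control SCNT and 30.4 to 30.8 in LatA control (log2 1.64 ± 0.21 and 1.6 ± 0.21), where 8.17% and 8.83% of all genes were called higher. Samhd1, a dNTP hydrolase that restricts retrotransposition, was lower in control SCNT (log2 -1.23, adjusted p = 0.0012), as were 6.82% of all genes. Hdac1 (log2 -0.93) and the HUSH complex genes Mphosph8 (-0.92) and Pphln1 (-0.84) had adjusted p-values of 0.0086, 6.4e-05 and 0.0031 in control SCNT, but stayed under the fold limit. At any fold, 8 of the 19 factors in control SCNT and 9 in LatA control had an adjusted p under 0.05 against IVF (edgeR). Not all are named here, and those named under the fold limit, all of them lower, do not stand for the list. The median log2 difference of the 19 was -0.047 and -0.0083, against 0.014 and 0.041 over all genes. After Kdm4d mRNA Pphln1 (1.04) and Hdac1 (1.11) were called higher (2.11% of all genes), with TSA and RK-701 Pphln1 (1.13; 3.68% of all genes), and with TSA and UNC0638 Hdac1 (1.13) was higher (3.68%) and Mov10 (-2.47) lower (2.54%). The H3K9 methyltransferase Setdb1 and its partner Trim28 gave no call in any of the 10 comparisons, although Setdb1 in LatA control against IVF had a log2 difference of -0.78 (adjusted p = 0.007) under the fold limit. In the 5 comparisons without a call by edgeR (Kdm3a, TSA, RK-701, A366, and TSA with A366), 10, 2, 7, 1 and 4 of the 19 had an unadjusted p under 0.05. The genes were not tested by DESeq2.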

How the data were processed

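Polyadenylated RNA of pooled mouse 2-cell embryos was analysed in 25 libraries of 11 groups. The authors trimmed the reads (Trimmomatic 0.36), kept those that STAR 2.7.5c placed uniquely on mm10, and deposited counts from featureCounts 1.6.2 without regard to strand, over genes and repeat copies of high Smith-Waterman score; reads over more than 1 feature were not counted. Unique mapping loses reads of near-identical copies, so copies of families whose members resemble each other are undercounted, and antisense reads cannot be told from sense reads.

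Gene reads (6662727 to 21188688 per library) with TMM factors set the scale of every older L1 value. Copies were placed against GENCODE M21 gene models (55134 of 55375 gene rows matched), with promoter windows from RefSeq GRCm38.p6. Counts per copy (mean of at least 5 reads; 46280 copies of all classes), per family and location (at least 10; 1093 sums) and per gene (at least 1; 25794) were tested in 1 edgeR 4.0.16 quasi-likelihood fit each over all 25 libraries (limma 3.58.1, R 4.3.3), with group as the only term. The p-values were adjusted by the Benjamini-Hochberg method over each table. Calls needed an adjusted p under 0.05, and for copies and genes also a fold over 2. Log2 differences of tested items are those of the fit. Sums and shares were compared by exact two-sided permutation tests over libraries. Folds against libraries at 0 used a floor of 3 reads per library, which covers counting error only. Within groups, libraries correlated at 0.412 to 0.650 over the log2 levels of the tested copies, and no libraries held identical counts. Fits were tested on simulated data.

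Families named are, per location, the 6 with the most reads and up to 3 called per direction with the largest fold in 4 comparisons (control SCNT and LatA control against IVF, Kdm4d, and TSA with RK-701). Copies named are the 5 with the highest mean level and up to 3 per direction in the same comparisons, with at least 10 reads in every library of the higher group. The text does not describe all of these copies, and 1 of them is not reported here. Families named for Kdm3a, A366, TSA and TSA with UNC0638, and the copies with a promoter window, were chosen after their values were seen. The members, lists and tests were chosen with earlier results of these data known. Alternatives were other scaling (RLE, no factor), DESeq2 1.42.0, other filters and distances, sex chromosomes included, fits of the compared groups alone, the replicate number as a block, and each library left out. Other software was Python 3.11.15 with pandas 2.3.3, NumPy 2.4.6 and matplotlib 3.10.9.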

Additional observations from a re-analysis of the deposited data

Results flagged for a closer look

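In 6 of 73 groups of 4 IVF libraries examined, 1 library stood far from the other 3 by the ratio of its gap to the whole range; chance alone gives about 1 in 20. Inside genes these were the families L1ME1 (ratio 0.864, the library at 2.05) and MusHAL1 (0.959, the library at 18.4 against 10.6 to 10.9). Among single copies they were the Lx9 copy on chromosome 15 (start 18308157; 0.859), the L1Lx_III copy in Cers6 (start 68938981; 0.842), the far Lx7 copy on chromosome 17 (start 15887833; 0.884) and the far Lx4A copy on chromosome 1 (start 77550947; 1), where a single read in 1 library made the range.

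The difference between TSA with A366 and the sum of the single treatments passed the interaction test in 6 older L1 family sums inside genes and 9 far from genes, all of them lower than the single treatments add up to. Both single treatments and the combination are compared with the same 2 LatA control libraries. What lies behind these values was not tested.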

How the results depend on the processing

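The summed levels inside genes kept their direction against IVF under every alternative run. Scaling by gene reads without a factor moved the median of all genes by 0.20 and 0.25 (log2) against IVF, by -0.29 and -0.27 for Kdm3a and Kdm4d and by -0.30, -0.27 and -0.28 for TSA with RK-701, A366 and UNC0638. Older L1 sums inside genes then differed by 1.07 in control SCNT, 0.98 in LatA control, -0.53 with Kdm3a, -0.81 with Kdm4d, -0.89, -0.97 and -0.68 with the 3 co-treatments, and far sums by 0.58, 0.35, -0.85 (Kdm4d) and -0.74 (TSA with RK-701). Called families became 25 for Kdm3a, 81 for Kdm4d, 81 for TSA with RK-701 and 38 for TSA with UNC0638, and called copies 16, 10 and 17 for Kdm3a, Kdm4d and TSA with UNC0638. RLE factors gave -0.61 inside and -0.65 far for Kdm4d. With LatA control as the reference the Kdm4d differences were -0.40 and -0.30, and with control SCNT as the reference the far RK-701 difference was -0.37.

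Over copies at least 50 kb from genes the far level was -0.53 for Kdm4d and -0.11 for TSA with RK-701, and the far share differences were -3.67 (Kdm4d), 1.27 (TSA), 2.89 (A366), 1.27 (TSA with RK-701), -2.53 (TSA with A366) and 1.80 points (TSA with UNC0638). There 0 families were called for TSA and 2 for A366, and Lx5b in control SCNT had a log2 difference of 0.25 in place of -1.11. Removing far copies near RefSeq genes too, chosen after seeing the data, gave 1 family for A366. With X and Y copies the inside shares differed by 1.71, 1.24, -0.63 (Kdm4d), 0.0539 (RK-701), -0.217 (A366), -1.05 (TSA with A366) and -0.494 points (TSA with UNC0638), the far shares by 3.72 (control SCNT) and -3.41 (Kdm4d) and the far Kdm4d level by -0.62, with 9 families called for TSA with UNC0638. Without the 10 copies with the most reads the Kdm4d levels were -0.60 inside and -0.67 far, the inside shares -0.969 (Kdm4d), -0.275 (TSA), -0.303 (A366) and -1.03 (TSA with A366), and control SCNT far from genes 0.54 with a share of 3.81 points. No copy overlapped an exon, so leaving such copies out was not run, and the interactions were not rerun.

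DESeq2 called more: 10 families for Kdm3a, 67 for Kdm4d, 5 for A366 and 24 for TSA with UNC0638, and copies numbering 87 (Kdm3a), 86 (Kdm4d), 39 (TSA), 80 (RK-701), 39 (A366), 161 (TSA with RK-701), 243 (TSA with A366) and 96 (TSA with UNC0638). Fits of the compared groups alone, which leave few libraries for the spread, called 0 families for Kdm3a, TSA, TSA with RK-701 and TSA with UNC0638, 1 for RK-701 and 6 for TSA with A366, and 0 copies in each of the 8 comparisons without IVF. A mean of at least 1 read gave 14 copies for Kdm4d, 14 for RK-701 and 19 for TSA with UNC0638, and a mean of at least 10 gave 15 (Kdm4d), 19 (RK-701), 7 (A366), 47 (TSA with RK-701) and 108 (TSA with A366). Families with a mean of at least 100 reads gave 2 calls for Kdm3a and 2 for A366, and no filter gave 15 for Kdm3a, 5 for TSA and 11 for A366. The cause of these differences was not tested.

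The labels do not say that a replicate number marks a shared day or animal, and same-numbered libraries of compared groups did not deviate together (correlations of -0.14 to 0.058 over 3117 copies). With the replicate number as a replicate block, called families were 3 for Kdm3a, 24 for Kdm4d and 9 for RK-701, and called copies 163 in control SCNT, 139 in LatA control, 12 for Kdm3a, 0 for TSA, 5 for RK-701, 1 for A366, 11 for TSA with RK-701, 39 for TSA with A366 and 11 for TSA with UNC0638. Crossing the numbers of the TSA group, chosen after seeing the data, gave 1 family and 0 copies for TSA, against 1 and 2 without a block.

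With 1 library left out, called families ranged from 51 to 67 in control SCNT, 36 to 59 in LatA control, 1 to 5 for Kdm3a, 0 to 16 for Kdm4d, 0 to 1 for TSA, 0 to 28 for RK-701, 0 to 7 for A366, 2 to 51 for TSA with RK-701, 20 to 65 for TSA with A366 and 0 to 25 for TSA with UNC0638. Called copies in the same order ranged from 145 to 323, 112 to 328, 3 to 17, 0 to 3, 0 to 5, 0 to 61, 1 to 10, 3 to 39, 3 to 72 and 5 to 21. Levels inside genes ranged from 0.82 to 0.92, 0.54 to 0.92, -0.38 to -0.10, -0.59 to -0.49, -0.18 to 0.34, -0.63 to -0.25, -0.12 to 0.27, -0.78 to -0.40, -0.89 to -0.51 and -0.59 to -0.21, and over the 4 untreated SCNT libraries from 0.76 to 0.89. Far levels ranged from 0.33 to 0.42, -0.19 to 0.39, -0.20 to 0.47, -0.60 to -0.56, -0.34 to 0.23, -0.37 to 0.20, 0.19 to 0.76, -0.73 to -0.15, -0.91 to -0.33 and -0.20 to 0.38, and over the untreated SCNT libraries from 0.19 to 0.39. Inside shares ranged from 1.48 to 1.66 points, 0.952 to 1.14, -0.495 to 0.121, -0.839 to -0.662, -0.157 to 0.542, 0.318 to 0.627, 0.0737 to 0.266, -1.32 to -0.0768, -0.991 to -0.799, -0.411 to -0.181 and, pooled, 1.19 to 1.43. Far shares ranged from 2.35 to 3.42 points, 1.65 to 3.22, -0.589 to 2.26, -3.21 to -2.15, -1.54 to 0.0237, -1.05 to 0.522, 0.340 to 1.91, -2.78 to -1.22, -4.14 to -2.57, -1.65 to 0.268 and, pooled, 2.41 to 3.00.

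Depth limits the single copies most: many named copies are at 0 reads in 1 group, where the floor of 3 reads sets the fold. Groups of 2 libraries cannot reach a permutation p under 0.333 against each other. Uniquely mapped reads undercount copies that resemble one another.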

Other observations

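A far Lx8b copy, 246601 bases from the nearest annotated gene (chr4:97274185-97274827), had reads in every IVF library and none in LatA control. It had 13, 52, 57 and 36 reads in IVF, 0 and 2 in control SCNT and 0 and 0 in LatA control, at least 13.0-fold lower than IVF. Each inhibitor group other than TSA alone was called above LatA control: 39, 20 and 11 reads with RK-701, 21 and 23 with A366, 23 and 29 with TSA and RK-701, 17 and 11 with TSA and A366, and 51 and 48 with TSA and UNC0638. TSA alone gave 11 and 13 reads, which were not called. The Kdm4d libraries had 2 reads each. The call with TSA and RK-701 ended in 3 of 4 omissions of 1 library (adjusted p up to 0.059, edgeR), and those against IVF held in all 6.

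Called copies also lay side by side. On chromosome 13 an Lx2B copy (chr13:32913956-32915188) stands beside the L1Lx_IV copy with reads in SCNT and none in IVF, and had 0 reads in all 4 IVF libraries, 10 and 35 in control SCNT and 10 and 2 in LatA control. On chromosome 2 an Lx3A copy (chr2:16282534-16284250), 26979 bases from Malrd1, lies near the L1Lx_IV copy that had no read with TSA and RK-701. It had 20, 68, 23 and 21 reads in IVF, 161 and 132 in control SCNT, 107 and 57 in LatA control and 0 and 7 with TSA and RK-701 (log2 -4.42, adjusted p = 0.017, edgeR). That call ended in 1 of 4 omissions (adjusted p = 0.10). Reads over neighbouring copies can belong to a single transcript, which was not tested.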
